A study of Mus musculus with 4 samples.

Results

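Collagen genes encode the alpha chains of collagens, the secreted or membrane-bound proteins that form fibrils, basement membrane networks and pericellular filaments. Their transcripts were described here in corticotropes and melanotropes, the pituitary cells that express Pomc, the gene of a hormone precursor. The genes were taken by symbol alone, as every entry named Col, a number, the letter a and a second number. This gave 53 RefSeq transcripts of 44 genes, out of 33072 transcripts of 24063 genes in the deposited table. Each gene is given by its longest transcript. Of the 44 genes 36 had 1 transcript, and in 7 of the other 8 the transcripts of a gene differed by at most 1.4 times in FPKM within a library and had the same direction. The remaining gene, Col6a6, has transcripts listed at 0 in some libraries.

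Anterior lobe corticotropes and intermediate lobe melanotropes came from POMC-EGFP mice of strain C57B6, in which green fluorescent protein marks cells that use the Pomc promoter, and the labels list no further treatment or genotype and no age. The lobes were parted by dissection and GFP-positive cells were sorted from each, so a group holds whatever carried GFP in its lobe. Each cell type had 2 libraries of total RNA, depleted of ribosomal RNA and read as 50 bp paired ends. The labels do not tie replicates to separate animals or sorts, so p-values measure the spread between these libraries, which may be technical. The comparison asks which genes differ between melanotropes and corticotropes.

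A collagen molecule is a helix of several chains, some made of identical chains and others of the products of separate genes. Fibrillar collagens bear load in connective tissue, type IV collagens form the sheet of basement membranes, type VI collagens make beaded filaments beside cells, and fibril-associated collagens decorate fibrils. Transmembrane collagens (Col13a1, Col17a1, Col23a1 and Col25a1) span the plasma membrane once and can be shed as soluble ectodomains. In endocrine tissue most fibrillar and basement membrane collagen is made by fibroblasts, pericytes and endothelial cells, although epithelial and neural cells make several of the others.

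The transmembrane genes were all higher in melanotropes, as described below, so the 250 bases before the start site of each deposited transcript are shown. They are taken from RefSeq on GRCm38.p6, which is the mm10 assembly of the deposited coordinates, and 35 of the 44 collagen genes had such a window. As a check of strand, bases just after the start site were sought near the 5′ end of GENCODE transcripts of the same gene. They were found for 32 of the 35 windows and for 3 of the 4 shown, so the strand of the remaining one rests on the annotation. The windows are chr10:61979109-61979358 on the minus strand for Col13a1, chr19:47692043-47692292 on the minus strand for Col17a1, chr11:51289670-51289919 on the plus strand for Col23a1 and chr3:130180595-130180844 on the plus strand for Col25a1, each written 5′ to 3′ along its gene. Capitals mark matches, on either strand, to 6 short motifs, which are the homeodomain core TAATTA, the Pitx factor motif TAATCC, the T-box motif GGTGTGA, the TATA box TATAAA, the CCAAT box and the GC box GGGCGG.
Col13a1: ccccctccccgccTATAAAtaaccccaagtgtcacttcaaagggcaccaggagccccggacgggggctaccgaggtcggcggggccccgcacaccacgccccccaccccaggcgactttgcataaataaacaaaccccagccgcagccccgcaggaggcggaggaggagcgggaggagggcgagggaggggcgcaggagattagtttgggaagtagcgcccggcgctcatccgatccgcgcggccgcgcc
Col17a1: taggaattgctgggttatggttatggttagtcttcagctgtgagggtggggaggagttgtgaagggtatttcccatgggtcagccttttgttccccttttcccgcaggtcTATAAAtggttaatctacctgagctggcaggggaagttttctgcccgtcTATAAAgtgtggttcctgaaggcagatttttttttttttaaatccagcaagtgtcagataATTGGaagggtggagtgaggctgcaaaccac
Col23a1: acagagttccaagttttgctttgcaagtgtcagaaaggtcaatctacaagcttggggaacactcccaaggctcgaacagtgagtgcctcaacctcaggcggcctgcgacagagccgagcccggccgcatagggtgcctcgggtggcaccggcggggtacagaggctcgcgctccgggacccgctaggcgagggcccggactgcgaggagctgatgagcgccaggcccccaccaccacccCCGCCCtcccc
Col25a1: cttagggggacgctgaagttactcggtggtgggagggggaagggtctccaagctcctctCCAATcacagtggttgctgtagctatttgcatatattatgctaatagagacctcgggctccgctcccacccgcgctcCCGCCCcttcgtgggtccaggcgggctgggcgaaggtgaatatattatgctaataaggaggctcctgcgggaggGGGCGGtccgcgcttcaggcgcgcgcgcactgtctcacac

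The 4 windows differ in base composition. Those of Col13a1, Col23a1 and Col25a1 held 24, 18 and 18 CpG dinucleotides at 68.8%, 66% and 60.4% G+C, against a median of 6 and 52.4% over 32851 windows of the same length, while that of Col17a1 held 2 at 46%. TATAAA began 237 bases before the start site in Col13a1 and 140 and 91 bases before it in Col17a1, and it occurs in 12.4% of all windows. GGGCGG lay in the windows of Col23a1 and Col25a1 (32.7% of all windows) and CCAAT in those of Col17a1 and Col25a1 (33.8%). None of the 4 held the homeodomain core TAATTA (4.84% of all windows), the Pitx motif TAATCC (6.25%) or the T-box motif GGTGTGA (3.33%). In Col25a1 a run of 16 bases, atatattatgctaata, occurred at 161 and again at 75 bases before the start site. It was the longest exact direct repeat in these 4 windows, where the others had repeats of 7 to 9 bases. Among the 35 collagen windows that of Col9a1 held a longer one, of 19 bases.

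The libraries matched their labels by defining markers. Crhr1, Avpr1b, Nr3c1 and Neurod1 were called lower and Pax7, Pcsk2 and Drd2 higher in melanotropes, while Tbx19 and Pomc, which both cell types express, were not called. The deposited values are FPKM, reads scaled to exon length and to library size, and all FPKM below were rescaled between libraries by a trimmed mean of ratios unless called deposited. Rescaling placed the median gene at 0.01 on the log2 scale, where the deposited scale has it at -0.42. The spacing of low values implied 97403265 to 186830117 reads per library over the longest transcripts, lowest in corticotrope replicate 1. Markers of other cell types were present in all libraries and differed between the groups. A gene was tested if it reached 1 FPKM in at least 2 libraries. Lum, Pi16, Emcn, Rgs5, Rax, Csf1r and Cx3cr1, among others, did so in 1 cell type alone. Such markers had to differ to be tested, so the counts of tested markers are a description. The summed level of 10 fibroblast markers was 5.39 and 6.54 FPKM in corticotropes against 21.9 and 18.1 in melanotropes, with 4 of 4 tested members higher and none of the 10 at 0 in every library (Dpt, Twist1 and Tcf21 at no more than 0.260 FPKM in any library). Of the untested members Pdgfra, at 0.156 and 0.269 against 1.01 and 0.917 FPKM, Twist1 and Tcf21 were also higher in both melanotrope libraries. The list was not uniform: Mfap5 was at 0.360 and 0.365 against 0.102 and 0.235 FPKM, and Fbln1 overlapped. Dpt was lower in both melanotrope libraries, but at no more than 0.0174 FPKM in any library. That of 10 endothelial markers was 17.4 and 26.8 against 9.39 and 6.74, with 4 of 6 tested members lower, and that of 9 pericyte and smooth muscle markers was 4.07 and 4.49 against 3.12 and 3.20, with Pdgfrb at 0.278 to 0.352 FPKM. Markers of posterior lobe glia, 7 in number, summed to 21.9 and 23.6 against 25 and 30.8, with 2 of 3 tested members higher and 1 lower and Gfap at 0.0819 to 0.397 FPKM. This sum is carried by Vim, at 19.4 and 20.2 against 9.63 and 12.0 FPKM, while Slc1a3 was at 1.55 and 2.09 against 11.1 and 14.1, Rax at 0.00819 and 0.0261 against 2.69 and 2.97, and Nkx2-1 at 0.0246 and 0.0174 against 0.488 and 0.471. Macrophage and blood markers summed to 40.0 and 52.6 against 8.72 and 13.5, with 2 of 8 tested members higher (Csf1r and Cx3cr1) and 5 lower, all globin genes whose near-identical copies share reads. Pituitary stem cell markers summed to 49.9 and 62.4 against 59.8 and 71.7, with 3 of 6 tested members higher and 2 lower, among them Aldh1a2 at 12.3 and 16.6 against 1.07 and 1.49 FPKM. Hormone genes and regulators of other anterior lobe lineages, 11 in number, summed to 5807 and 5658 FPKM in corticotropes and to 14.4 and 63.5 in melanotropes. The part of these cells in the collagen values was not tested.

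Different collagen classes made up the summed collagen level in the 2 cell types. The sum over the 44 genes was 54.6 and 64.7 FPKM in corticotropes and 71.0 and 74.6 in melanotropes, an order that turned without rescaling, where it was 66.7 and 74.5 against 62.6 and 60.2. The shares of a class within a library do not depend on rescaling. Transmembrane collagens made up 5.70% and 6.21% of this sum in corticotropes and 43.9% and 45.1% in melanotropes. Fibrillar collagens made up 40.8% and 32.1% against 20.9% and 19.2%, and fibril-associated collagens 24.0% and 28.0% against 14.3% and 14.2%. The most abundant collagen transcript was Col9a2 in corticotropes, at 12.1 ± 3.48 FPKM (SD, n = 2, as for all means below), followed by Col11a1 at 8.28 ± 0.973. In melanotropes it was Col13a1, at 16.0 ± 1.93 FPKM, followed by Col25a1 at 8.84 ± 0.0338, and Col9a2 came next at 4.65 ± 0.877. In bulk samples, fewer cells of a type and less RNA per cell cannot be told apart.

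**Figure D1:**
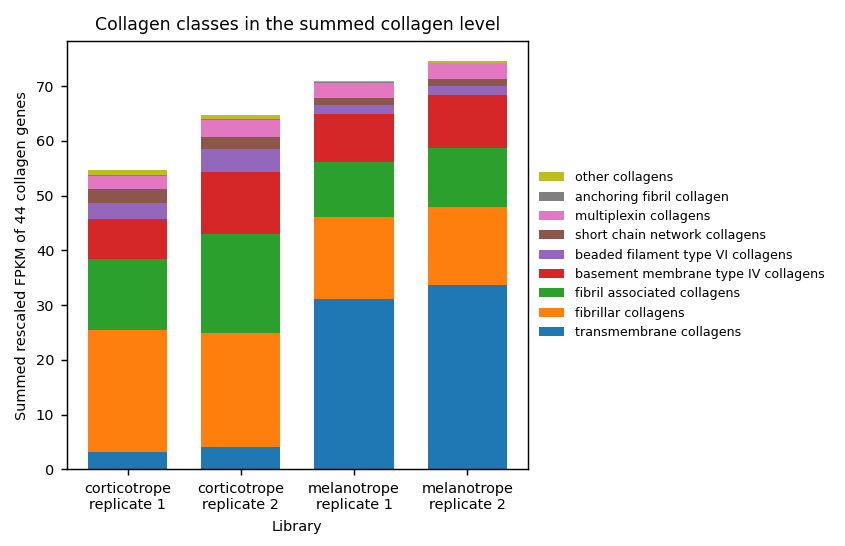
Stacked bars give the summed rescaled FPKM of the 44 collagen genes in each of the 4 libraries, split by collagen class. The blue transmembrane part is 3.11 and 4.02 FPKM in corticotropes and 31.2 and 33.6 in melanotropes.

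Of the 44 genes 19 reached 1 FPKM in at least 2 libraries and were tested. By limma, with Benjamini-Hochberg adjustment over 13043 genes and a threshold of 0.05, 7 collagen genes were called higher in melanotropes, 7 lower and 5 in neither direction. Over all genes tested 18.7% were called higher and 17.5% lower. The median log2 difference of the 19 was -0.09, against 0.01 for all genes. Of the 7 higher genes 6 passed the filter through melanotropes alone, and of the 7 lower 4 through corticotropes alone, so these genes had to differ to be tested and the counts are a description. Without rescaling 6 were higher and 10 lower, where 7.14% of all genes were called higher and 66.8% lower. Without the filter all 44 were tested, with 14 higher and 11 lower, where 12.0% and 12.8% of 20297 genes were. The counts fell with single libraries because the filter then removes genes of 1 cell type: 1 higher without melanotrope replicate 1 and 2 without melanotrope replicate 2, and 4 lower without corticotrope replicate 1 and 3 without corticotrope replicate 2. With the 19 genes kept in the fit, leaving out any 1 library gave 6 to 8 higher and 6 or 7 lower. Of the 53 collagen transcripts 1, that of Col13a1, had an FDR under 0.05 in the authors' deposited table.

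**Figure D2:**
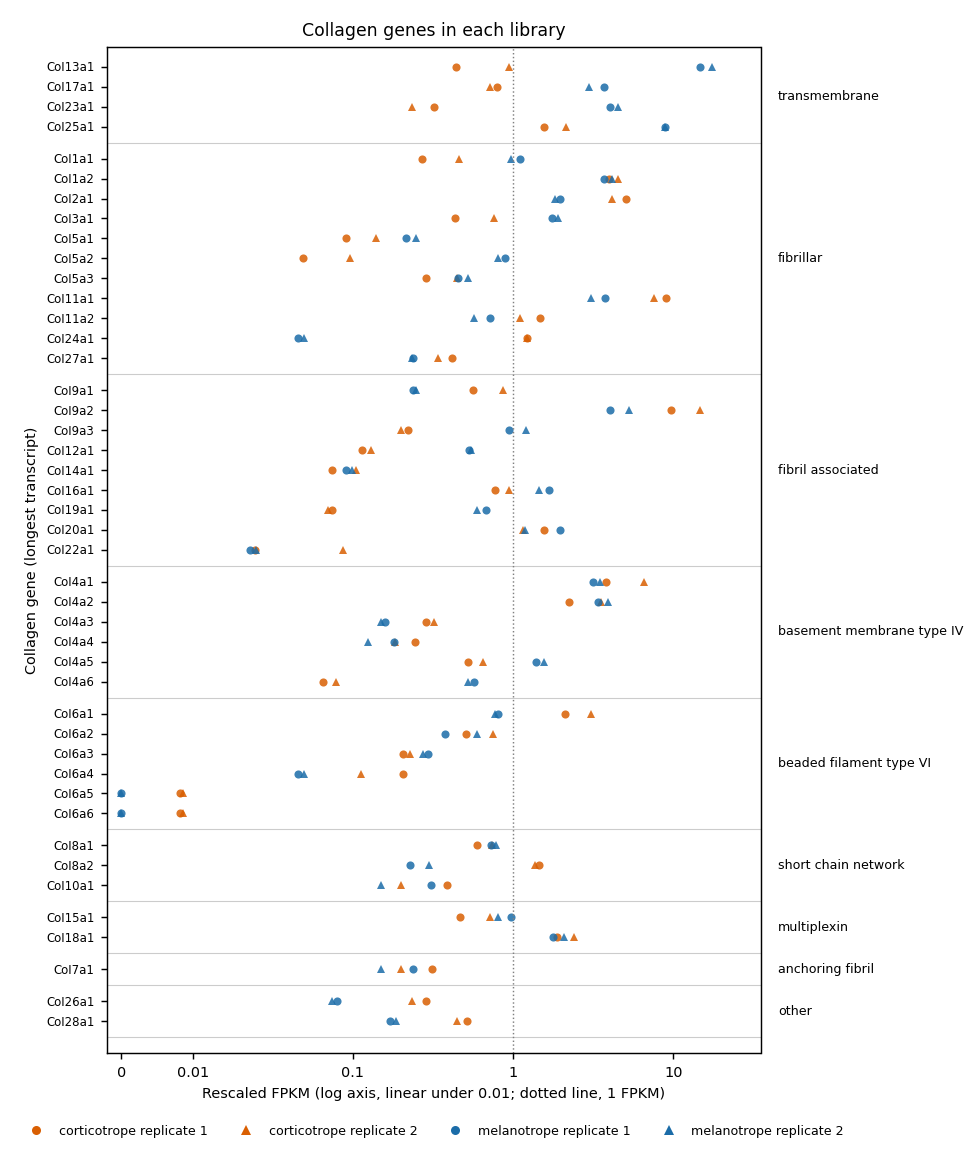
Points give the rescaled FPKM of each of the 44 collagen genes in the 4 libraries, on a log axis that is linear under 0.01, grouped by collagen class. The 4 transmembrane genes lie to the right in both melanotrope libraries, and most genes left of the dotted line at 1 FPKM were not tested.

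All 4 transmembrane collagen genes were higher in melanotropes, by 4.42 to 23.1 times in mean FPKM. Over all genes tested 18.7% were called higher. Col13a1 (chromosome 10, 61838498 to 61979108, minus strand), whose product sits at cell adhesions and at the neuromuscular junction, stood at 0.442 and 0.939 FPKM in corticotropes and at 14.6 and 17.3 in melanotropes. The corticotrope replicates lie apart, on 177 and 709 implied reads, but both lie far below both melanotrope libraries. The log2 difference was 3.34 (SE 0.16, limma adjusted p = 6.74e-05), on log2(FPKM + 1), a scale that understates the change of low genes. In the authors' deposited table the log2 fold change of Col13a1 was 4.70 with an FDR of 2.48e-06.

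Col23a1 (chromosome 11, 51289920 to 51583925, plus strand), a shed transmembrane collagen, was at 0.319 and 0.235 FPKM in corticotropes and at 4.05 and 4.51 in melanotropes. Its replicates lay close together in each cell type, and the log2 difference was 2.05 (SE 0.10, limma adjusted p = 7.09e-05). Behind the corticotrope values stood 252 and 350 implied reads, and behind the melanotrope values 4395 and 4790.

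Col25a1 (chromosome 3, 130180845 to 130599883, plus strand), known from motor neurons and from amyloid plaques, was at 1.56 and 2.14 FPKM in corticotropes and at 8.86 and 8.81 in melanotropes, a log2 difference of 1.80 (SE 0.12, limma adjusted p = 1.92e-04). It was the only transmembrane collagen gene above 1 FPKM in both corticotrope libraries. Its 3 transcripts, of 6716 to 7381 nt, differed in FPKM by at most 1.02 times within a library.

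Col17a1 (chromosome 19, 47646341 to 47692042, minus strand), the collagen of epithelial hemidesmosomes, was at 0.794 and 0.713 FPKM in corticotropes and at 3.68 and 2.99 in melanotropes, a log2 difference of 1.30 (SE 0.11, limma adjusted p = 4.80e-04). These 4 genes lie on 4 chromosomes, span 45.7 to 419 kb and have 29 to 54 exons in the longest GENCODE transcript. Col13a1, Col17a1 and Col23a1 passed the filter through melanotropes alone, so alternatives that leave out a melanotrope library and filter anew do not all test them. The 4 tested fibroblast markers were higher in the same melanotrope libraries, with Dcn, the most abundant, at 2.43 and 2.94 FPKM against 9.86 and 7.11. Lum and Pi16 among them passed the filter through melanotropes alone. Of the untested fibroblast markers Pdgfra, Twist1 and Tcf21 were higher, Mfap5 and Dpt were lower and Fbln1 overlapped. The part of fibroblasts in these values was not tested.

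**Figure D3:**
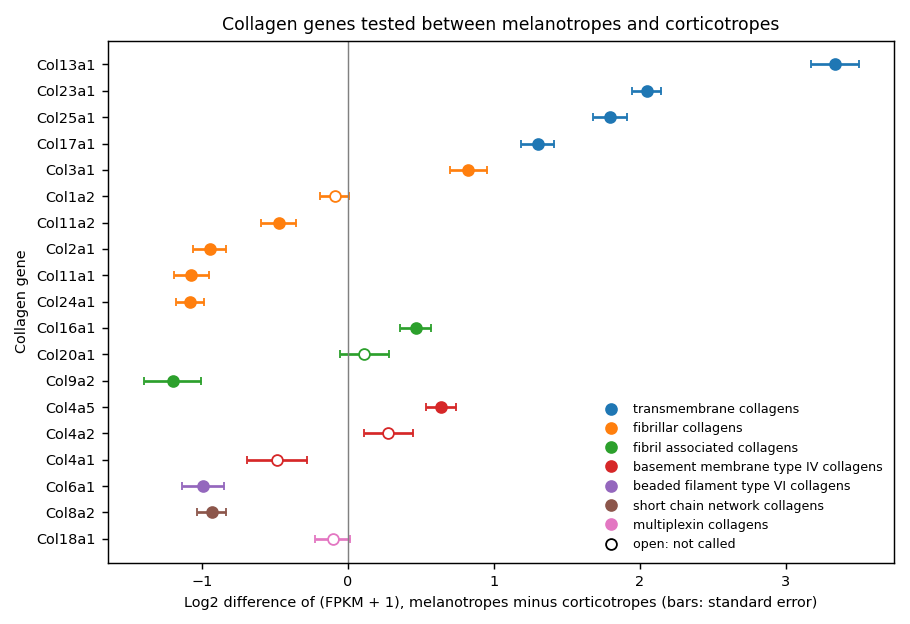
Points give the log2 difference of FPKM + 1, melanotropes minus corticotropes, with its standard error, for the 19 tested collagen genes, coloured by class and open where not called. The 4 transmembrane genes lie between 1.30 and 3.34, and the other called genes between -1.20 and 0.83.

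Of the fibrillar genes 6 were tested, of which 4 were lower in melanotropes and 1 higher, against 17.5% and 18.7% of all genes. Col11a2 and Col24a1 passed the filter through corticotropes alone and Col3a1 through melanotropes alone. Without the filter 4 of the 11 fibrillar genes were called lower and 4 higher, where 12.8% and 12.0% of all genes were. Col2a1 (chromosome 15, 97975602 to 98004724), the main fibrillar collagen of cartilage, was at 5.09 and 4.13 FPKM in corticotropes and at 1.96 and 1.83 in melanotropes, a log2 difference of -0.95 (SE 0.11, limma adjusted p = 0.00154). Col11a1 (chromosome 3, 114030540 to 114220326), a minor chain of the same fibrils, was at 8.97 and 7.60 against 3.77 and 3.06 FPKM (log2 difference -1.07, SE 0.12, limma adjusted p = 0.00127). In both genes the 2 cell types did not overlap, and in both the mean was 2.43 times as high in corticotropes.

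Col9a2 (chromosome 4, 121039566 to 121055325), a chain of the type IX collagen that coats those fibrils, was at 9.68 and 14.6 FPKM in corticotropes and at 4.03 and 5.27 in melanotropes. Its corticotrope replicates lie apart, but the lower of them is above both melanotrope libraries (log2 difference -1.20, SE 0.20, limma adjusted p = 0.00539). Col11a2 (chromosome 17, 34039437 to 34066242) was at 1.47 and 1.10 against 0.715 and 0.570 FPKM (log2 difference -0.48, SE 0.12, limma adjusted p = 0.0266). In the authors' deposited table its log2 fold change had the opposite sign, at 0.0567, without passing their FDR. The call of Col11a2 was lost without melanotrope replicate 1 (adjusted p = 0.0583) or 2 (0.133), and with the tested genes held fixed also without corticotrope replicate 1 (0.0827), in a range of 0.00351 to 0.133 over 16 alternatives.

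Among the remaining fibrillar genes the cell types parted in both directions. Col24a1 (chromosome 3, 145292472 to 145552005), a fibrillar collagen of developing bone and cornea, was at 1.22 and 1.22 FPKM in corticotropes and at 0.0454 and 0.0496 in melanotropes, a 25.7-fold lower mean. The melanotrope values rest on 62 and 66 implied reads and the corticotrope values on 1210 and 2277. The log2 difference was -1.08 (SE 0.10, limma adjusted p = 5.36e-04), small because the values are near the pseudocount of 1.

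Col3a1 (chromosome 1, 45311538 to 45349706), a collagen of soft connective tissue and vessel walls, was at 0.434 and 0.765 FPKM in corticotropes and higher in melanotropes, at 1.75 and 1.90 (log2 difference 0.83, SE 0.13, limma adjusted p = 0.00436). Col1a2, a chain of the most abundant body collagen, was at 3.98 and 4.52 against 3.69 and 4.16 FPKM and was not called (log2 difference -0.09, limma adjusted p = 0.524). It was called lower on the deposited scale alone (adjusted p = 0.00545, range 0.00545 to 0.982 over 19 alternatives). Among the fibroblast markers Lum, at 0.221 and 0.287 against 1.92 and 1.52 FPKM, and Dcn were higher in the melanotrope libraries. So were Pi16, Prrx1, Pdgfra, Twist1 and Tcf21. Mfap5, at 0.360 and 0.365 against 0.102 and 0.235 FPKM, and Dpt were lower, and Fbln1 overlapped. The part of fibroblasts in the Col3a1 values was not tested.

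Col16a1 (chromosome 4, 130047840 to 130099277), a fibril-associated collagen, was at 0.769 and 0.939 FPKM in corticotropes and at 1.67 and 1.45 in melanotropes (log2 difference 0.47, SE 0.11, limma adjusted p = 0.0180). Its call was lost without rescaling (adjusted p = 0.143), without corticotrope replicate 1 (0.104) or melanotrope replicate 2 (0.0540), and, with the tested genes held fixed, without melanotrope replicate 1 (0.0921), in a range of 0.00560 to 0.143 over 18 alternatives. Col16a1 passed the filter through melanotropes alone. Col20a1, also fibril-associated, was at 1.56 and 1.16 against 1.95 and 1.19 FPKM. Its cell types overlapped and it was not called (limma adjusted p = 0.640).

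Basement membrane type IV genes lie in head-to-head pairs that share a start region, and the pairs did not behave alike. Col4a1 and Col4a2, which encode the ubiquitous network, start 3 bp apart on chromosome 8 (11312826 and 11312829). Col4a1 was at 3.82 and 6.55 FPKM in corticotropes and at 3.14 and 3.49 in melanotropes (log2 difference -0.48, SE 0.21, limma adjusted p = 0.120). Col4a2 was at 2.24 and 3.51 against 3.39 and 3.89 FPKM (log2 difference 0.28, SE 0.17, limma adjusted p = 0.248), with corticotrope replicate 2 inside the melanotrope range. The ratio of Col4a1 to Col4a2 was 1.70 and 1.87 in corticotropes and 0.926 and 0.898 in melanotropes.

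Neither gene of this pair was called, but each was called under some alternatives. Without rescaling Col4a1 was called lower (adjusted p = 0.00905). Without corticotrope replicate 1, Col4a1 was called lower (log2 difference -0.81, adjusted p = 0.00270, range 0.00270 to 0.399 over 19 alternatives). Without corticotrope replicate 2, Col4a2 was called higher (0.52, adjusted p = 0.0230, range 0.0225 to 0.901). Corticotrope replicate 2, with more of both, also had the highest summed level of endothelial markers, 26.8 FPKM against 17.4 in replicate 1, and Plvap there was at 9.83 against 6.02 FPKM. The part of endothelial cells in the Col4a1 and Col4a2 values was not tested. Exons of the pair overlap by 22 bases on opposite strands, and the sources used here do not say whether strand was used in counting.

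Col4a5 and Col4a6, the chains of the basement membrane beneath smooth muscle and epithelia, start 1343 bp apart on chromosome X (141475419 and 141474076). Col4a5 was at 0.524 and 0.652 FPKM in corticotropes and higher in melanotropes, at 1.38 and 1.55 (log2 difference 0.64, SE 0.10, limma adjusted p = 0.00509). Col4a5 passed the filter through melanotropes alone. Col4a6 was at 0.0655 and 0.0782 against 0.567 and 0.521 FPKM and did not pass the filter. Without the filter it was called higher (log2 difference 0.53, adjusted p = 0.00251), so both genes of this pair had higher values in melanotropes. Col4a3 and Col4a4, the chains of kidney and lung basement membranes, start 72 bp apart on chromosome 1 and did not exceed 0.322 FPKM in any library. Both had higher means in corticotropes, and without the filter Col4a3 was called lower in melanotropes (adjusted p = 0.0171) and Col4a4 was not (adjusted p = 0.270).

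**Figure D4:**
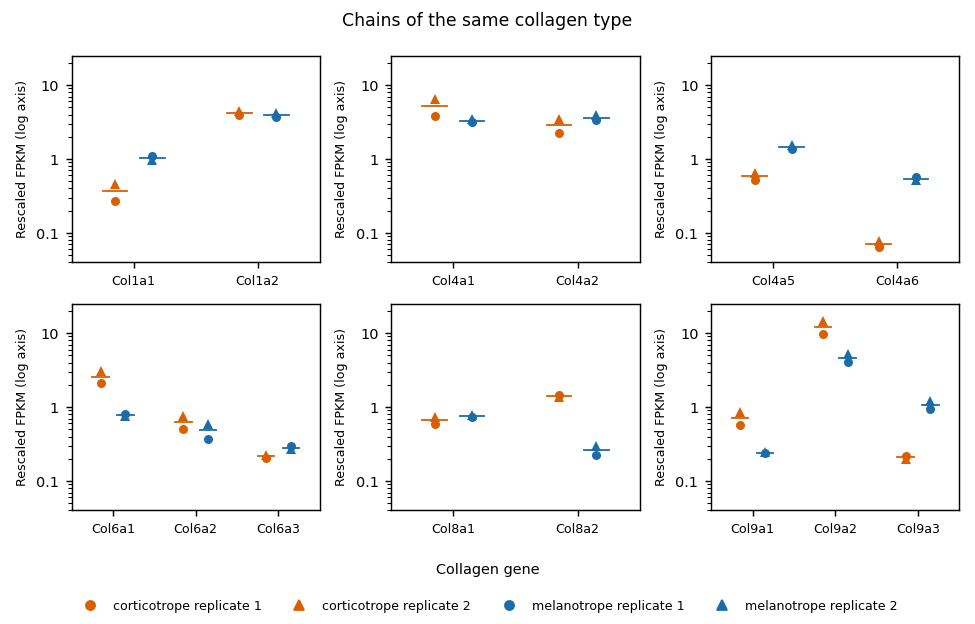
Each panel gives the rescaled FPKM, on a log axis, of genes that encode chains of 1 collagen type, by library, with a bar at the mean of each cell type. Col4a5 and Col4a6 are both higher in melanotropes, while Col9a3 lies opposite to Col9a1 and Col9a2, and Col8a2 differs where Col8a1 overlaps.

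Chains of the same type went apart elsewhere too. Of the type IX genes, Col9a1 was at 0.565 and 0.869 FPKM in corticotropes and at 0.238 and 0.248 in melanotropes, in step with Col9a2, so that the ratio of Col9a1 to Col9a2 stayed between 0.0471 and 0.0595 in the 4 libraries. Col9a3, the remaining chain, was at 0.221 and 0.200 FPKM in corticotropes and at 0.942 and 1.20 in melanotropes, the opposite direction. Its ratio to Col9a2 was 0.0228 and 0.0137 in corticotropes against 0.234 and 0.228 in melanotropes. Neither Col9a1 nor Col9a3 passed the filter, and without it Col9a1 was called lower (adjusted p = 0.0347) and Col9a3 higher (adjusted p = 0.00596). Exons of Col9a3 overlap those of Tcfl5 on the other strand, and Tcfl5 was listed at no more than 0.01 deposited FPKM in any library.

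Col8a2 (chromosome 4, 126286794 to 126314330), a short chain collagen of corneal and vascular membranes, was at 1.46 and 1.36 FPKM in corticotropes and at 0.227 and 0.297 in melanotropes (log2 difference -0.93, SE 0.10, limma adjusted p = 9.82e-04). Its partner Col8a1 was at 0.598 and 0.739 against 0.726 and 0.781 FPKM, with overlapping cell types. Col6a1 (chromosome 10, 76708792 to 76726044), a type VI chain of pericellular filaments, was at 2.10 and 3.06 FPKM in corticotropes and at 0.805 and 0.768 in melanotropes (log2 difference -0.99, SE 0.14, limma adjusted p = 0.00337). The chains that join it were under the filter: Col6a2 at 0.507 and 0.747 against 0.374 and 0.595 FPKM, and Col6a3 at 0.205 and 0.226 against 0.295 and 0.273. The ratio of Col6a1 to Col6a2 was 4.15 and 4.09 in corticotropes and 2.15 and 1.29 in melanotropes. Col8a2 and Col6a1 passed the filter through corticotropes alone. Of the endothelial markers 4 of 6 tested were lower in the same melanotrope libraries. Of the pericyte and smooth muscle markers 1 of 2 was, Rgs5, at 1.70 and 1.87 against 0.726 and 0.967 FPKM. Kcnj8, Myh11 and Abcc9 also had lower means there, while Pdgfrb, Des, Acta2, Cspg4 and Tagln had higher means. All of these but Tagln, which was not called, were at no more than 0.608 FPKM in any library and untested. The part of endothelial cells, pericytes and smooth muscle in these collagen values was not tested.

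Of the multiplexins, collagens of vessel and epithelial basement zones, Col18a1, whose cleaved end is endostatin, was at 1.89 and 2.41 FPKM in corticotropes and at 1.77 and 2.08 in melanotropes and was not called (limma adjusted p = 0.544), although without rescaling it was called lower (0.0141, the smallest of 19 alternatives, of which the largest was 0.930). Col15a1 was at 0.467 and 0.713 against 0.976 and 0.806 FPKM, under the filter. Without the filter it was not called (adjusted p = 0.155).

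The 25 genes under the filter reached at most 1.20 FPKM in any library. Without the filter 7 of them were called higher and 4 lower in melanotropes, with no call for the other 14. Over all genes 12.0% were then called higher and 12.8% lower. Besides Col4a6 and Col9a3, the higher genes were Col1a1, Col5a1, Col5a2, Col12a1 and Col19a1. Col5a2, a chain that limits fibril width, was at 0.0491 and 0.0956 against 0.885 and 0.806 FPKM, an 11.7-fold higher mean resting on 45 and 166 implied reads in corticotropes and 1118 and 996 in melanotropes. Col19a1, a fibril-associated collagen also made by neurons, was at 0.0737 and 0.0695 against 0.681 and 0.595 FPKM, an 8.91-fold higher mean. Col12a1, a fibril-associated collagen of tendon and muscle, was at 0.115 and 0.130 against 0.533 and 0.545 FPKM. Col1a1, the partner chain of Col1a2, was at 0.270 and 0.461 against 1.10 and 0.967 FPKM, so the ratio of Col1a1 to Col1a2 was 0.0679 and 0.102 in corticotropes against 0.298 and 0.232 in melanotropes. The 4 tested fibroblast markers, of which Lum and Pi16 passed the filter through melanotropes alone, were higher in the same melanotrope libraries. Of the untested fibroblast markers Pdgfra, Twist1 and Tcf21 were higher, Mfap5 and Dpt were lower and Fbln1 overlapped. The part of fibroblasts in these values was not tested.

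The 4 lower genes under the filter were Col4a3, Col9a1, Col26a1 and Col28a1. Col28a1, a collagen of peripheral nerve, was at 0.516 and 0.443 FPKM in corticotropes and at 0.170 and 0.186 in melanotropes, and Col26a1 at 0.286 and 0.235 against 0.0794 and 0.0744. Of the Schwann cell markers, Sox10 was at no more than 0.0907 FPKM in any library, and Mbp, shared with oligodendrocytes, was at 1.70 and 1.72 against 5.42 and 5.03. Their part in the Col28a1 values was not tested. Col7a1, Col10a1, Col14a1, Col22a1, Col27a1 and Col5a3 stood between 0.0227 and 0.521 FPKM in all libraries with no call. Col6a4 was at no more than 0.205 FPKM with no call. Col6a5 and Col6a6 were barely detected, with 11 and 21 and with 8 and 16 implied reads in corticotropes, and were listed at 0 in both melanotrope libraries, without a call.

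Genes that fold, process, bind or cut collagens were followed as 5 lists. Among their called members named below, P4ha3, Pcolce2, Itga2, Mmp2 and Pxdn passed the filter through corticotropes alone and Mrc2 through melanotropes alone. Such genes had to differ to be tested, so the counts of these lists are a description. Collagen folding and modification enzymes were mostly higher in melanotropes: of 18 tested 11 rose and 2 fell, with a median log2 difference of 0.40, against 18.7% and 17.5% of all genes and a median of 0.01. Fkbp14, a prolyl isomerase of the endoplasmic reticulum, was at 18.8 and 16.4 FPKM in corticotropes and at 41.3 and 32.8 in melanotropes. Plod1, a lysyl hydroxylase, was at 6.39 and 6.57 against 10.5 and 11.9 FPKM, and Ppib, a further isomerase, at 50.2 and 49.4 against 80.8 and 75.9. Without rescaling the list had 3 higher and 5 lower, against 7.14% and 66.8% of all genes, and Ppib was not called (adjusted p = 0.181). Many of these enzymes also serve other secreted proteins.

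The 2 members that fell changed by more than those that rose. Plod2, the lysyl hydroxylase of telopeptide cross-links, was at 8.14 and 8.54 FPKM in corticotropes and at 1.25 and 1.43 in melanotropes, with a limma adjusted p of 6.03e-05. P4ha3, a catalytic chain of prolyl 4-hydroxylase, was at 2.37 and 1.84 against 0.216 and 0.223 FPKM (log2 difference -1.34). In both genes the cell types were far apart beside the spread of replicates. The other prolyl 4-hydroxylase chains P4ha1, P4ha2 and P4hb were not called.

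**Figure D5:**
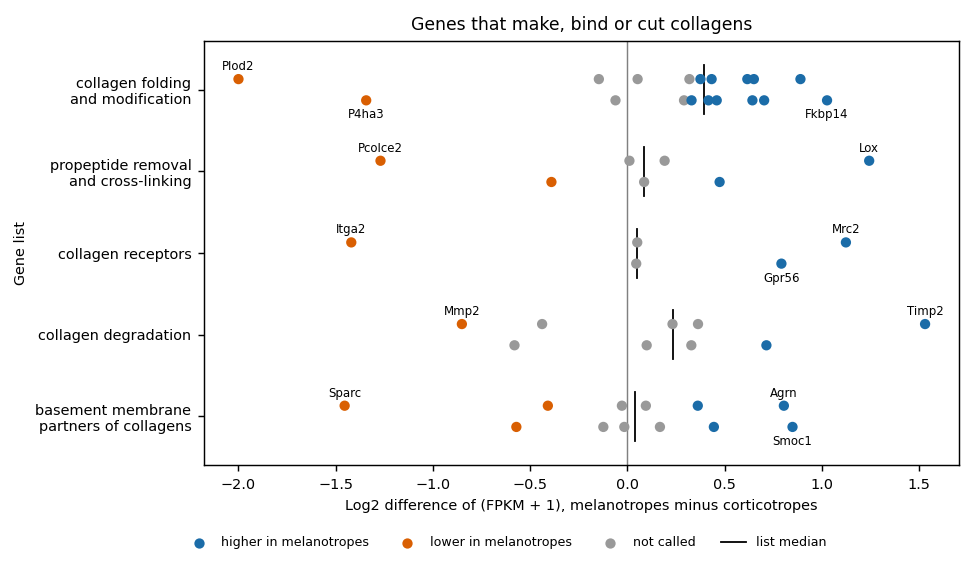
Points give the log2 difference of FPKM + 1, melanotropes minus corticotropes, of the tested genes of 5 collagen-related lists, with a line at each list's median. Plod2 and P4ha3 lie far left of a folding list whose median is 0.40, and Timp2 and Lox lie far right in theirs.

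Of 7 tested genes for propeptide removal and cross-linking 2 rose and 2 fell, with a median log2 difference of 0.09, against 18.7% and 17.5% of all genes. Without rescaling 1 was higher and 3 were lower, against 7.14% and 66.8% of all genes. Lox, the oxidase that starts collagen cross-links, was at 5.89 and 5.67 FPKM in corticotropes and higher in melanotropes, at 14.2 and 16.0. Bmp1, the C-propeptide protease, was at 4.45 and 4.14 against 6.5 and 6.21 FPKM and was not called without rescaling (adjusted p = 0.621). Pcolce2, an enhancer of that protease, was at 1.58 and 1.30 against 0.0227 FPKM and a value listed at 0. Pcolce, its relative, was lower at 1.79 and 1.83 against 1.33 and 0.979 FPKM. The call of Pcolce (adjusted p = 0.0401) was lost without the filter (0.0753), with sums made equal without Pomc (0.0627) and without corticotrope replicate 1 (0.117), corticotrope replicate 2 (0.159) or melanotrope replicate 2 (0.242), the largest over its alternatives.

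Of 5 tested collagen receptors 2 rose and 1 fell, against 18.7% and 17.5% of all genes. Itga2 and Mrc2, both called, each passed the filter through 1 cell type alone. On the deposited scale 2 were higher and 3 lower, against 7.14% and 66.8% of all genes. Itga2, the alpha chain of the collagen integrin of platelets and epithelia, was at 1.96 and 1.68 FPKM in corticotropes and at 0.0567 and 0.0496 in melanotropes. Mrc2, which takes up collagen for breakdown, was at 0.311 and 0.356 against 1.93 and 1.88 FPKM, and Gpr56, an adhesion receptor for collagen III, at 10.1 and 9.70 against 16.7 and 19.2. Ddr1, a collagen receptor kinase, and Itgb1, the shared beta chain, were abundant in both, at 40.3 to 50.9 and 72.9 to 83.3 FPKM, and were not called.

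Of 9 tested genes of collagen degradation 2 rose and 1 fell, against 18.7% and 17.5% of all genes. On the deposited scale 1 was higher and 3 were lower, against 7.14% and 66.8% of all genes. Timp2, a protease inhibitor, was at 6.99 and 7.30 FPKM in corticotropes and at 21.8 and 23.2 in melanotropes, and the gelatinase Mmp2 was lower, at 1.56 and 2.02 against 0.533 and 0.545. Mmp15, a membrane protease, was higher at 4.74 and 6.69 against 8.18 and 12.0 FPKM (adjusted p = 0.0380), a call lost without the filter (0.101), without corticotrope replicate 1 (0.105) or melanotrope replicate 2 (0.108) and on the deposited scale (0.181, the largest over its alternatives).

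Of 12 tested basement membrane partners 4 rose and 3 fell, with a median log2 difference of 0.04, against 18.7% and 17.5% of all genes. Without rescaling 2 of 13 were higher and 8 lower, against 7.14% and 66.8% of all genes. Sparc, a collagen-binding matrix protein, was at 29.9 and 29.5 FPKM in corticotropes and at 9.14 and 11.4 in melanotropes, a log2 difference of -1.45 (limma adjusted p = 3.12e-04). Agrn, a heparan sulfate proteoglycan of basement membranes and synapses, was higher at 8.75 and 9.75 against 15.5 and 18.4 FPKM, and Smoc1, a relative of Sparc, at 1.08 and 1.20 against 2.36 and 3.42. Nid2, a linker of basement membranes, was lower at 1.65 and 1.94 against 0.726 and 1.04 FPKM, Pxdn, the peroxidase that cross-links type IV collagen, was lower at 1.29 and 1.13 against 0.692 and 0.632, and Lamb1 was higher at 4.90 and 5.01 against 7.07 and 6.27 FPKM. Nid2 was not called without melanotrope replicate 1 (adjusted p = 0.0779), Pxdn was not called without melanotrope replicate 1 (0.0909) or 2 (0.134) or, with the tested genes held fixed, without corticotrope replicate 1 (0.0692). Lamb1 was not called without melanotrope replicate 1 (0.152), corticotrope replicate 1 (0.0866) or corticotrope replicate 2 (0.0532), without the filter (0.0575) or with sums made equal without Pomc (0.0540), and its sign turned on the deposited scale (-0.06).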

How the data were processed

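The deposited table gives 1 FPKM per RefSeq transcript and library. The authors counted exons on mm10 with the analyzeRepeats program of HOMER, per the file headers. It also holds the authors' log2 fold change, mean log2 level, p-value, FDR and a fold ratio from HOMER's getDiffExpression, per the file headers; the deposited fold ratio and mean level were not used. TopHat, HOMER and edgeR are named in the submitters' processing notes; versions and strand setting: not given in the sources used here. Columns were divided by unweighted TMM factors (1.22, 1.15, 0.882 and 0.807; trims of 30% and 5%). The longest transcript of each gene was kept, genes with at least 1 FPKM in 2 libraries were fitted with limma 3.58.1 in R 4.3.3 on log2(FPKM + 1), with a trended prior and cell type as the sole term, and p-values were adjusted over 13043 genes. All 4 libraries entered, with 2 residual and 4.02 prior degrees of freedom. FPKM times length fell on whole multiples of a step (within 0.1 of a step) for 100% of the low values used, which gave the implied reads; whether a read pair counts as 1 or 2 is not given. Tested on simulated data in 20 runs of 13043 genes with 200 changed, the fit recovered 99.3% of changes of 1 and 100% of changes of 2 on the log2 scale. Of its calls 8.70% were false, above the nominal level. Changes were planted only in genes with a mean log2(FPKM + 1) above log2(3), and several called collagen genes, such as Col24a1 and Col8a2, lie under that. Errors were drawn as independent normal values with the variances of the fit, while deviations of same-numbered libraries correlated at 0.526. These rates may therefore not hold for the genes reported here. Genes named are all collagen genes, and up to 3 per direction with the smallest adjusted p in each related list; other names were chosen after their values were seen. The members and lists were chosen with earlier results of these data known. The alternatives were 3 scalings, 2 pseudocounts, 2 filters, 2 transcript choices, a replicate block, an untrended prior and leaving out each library, the last also with the tested genes held fixed, which was added after the data were seen. Motifs were searched in Python 3.11.15. Gene coordinates follow the deposited mm10 table and are counted from 1.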

Additional observations from a re-analysis of the deposited data

How the results depend on the processing

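With 7 collagen genes called higher and 7 lower in melanotropes, both counts stayed within 1.5 times under the other scalings, both pseudocounts, both transcript choices, the untrended prior and the replicate block. Without the filter on low values they were 14 and 11, and with a filter on the mean 4 were called lower, since fewer genes are tested there. Leaving out 1 library gave 1 to 8 higher and 3 to 6 lower, because a lone library of a cell type cannot carry a gene past the filter; with the tested genes held fixed the counts were 6 to 8 and 6 or 7. Signs of differences that were not called turned for Col4a2 without rescaling (-0.10), for Col20a1 without rescaling (-0.17) and when 1 library was left out (-0.10 to 0.34, with -0.0011 without corticotrope replicate 2), and for Col18a1 when 1 library was left out (-0.23 to 0.025). Lamb1 turned without rescaling (-0.056). The cause was not tested. With the replicate number as a block 8 genes were called higher and 8 lower, Col4a2 (adjusted p = 0.0435) and Col4a1 (adjusted p = 0.0118) being added. The labels give the replicate numbers no meaning, and same-numbered libraries' deviations correlated at 0.526 across genes. Values were deposited to 2 decimals, which limits the precision of the lowest genes.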
